A study of Mus musculus with 8 samples.

Results

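The MHC class II genes and Cd74 were followed in mouse dorsal root ganglia (DRG) over a time course of paw inflammation. The 7 genes were H2-Aa, H2-Ab1 and H2-Eb1, which encode chains of the peptide-binding class II molecules, Cd74, which encodes the invariant chain, H2-DMa and H2-DMb1, which encode the peptide exchange factor DM, and Ciita, which encodes the class II transactivator. They were chosen by name from the 24421 genes of the count table, on a rule that also used their measured levels in all 8 libraries and the comparison of 30d with 1d, so that comparison is given as a description with no test. All 7 genes passed the filter on low counts, as did 17328 of the 24421 genes.

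There were 2 libraries for a time point, and RNA in each came from the lumbar 3 to 5 DRG on the left side, combined from 2 to 3 wild-type (WT) C57BL/6J mice of 8 weeks, the age the labels give, while the study's methods give male mice over a wider range of ages. The mice of 1d, 3d and 30d received 20 µl of 1% carrageenan, a seaweed polysaccharide that inflames the tissue, under the plantar skin of the left hind paw and were sacrificed 1, 3 or 30 days later. The 0d mice were naive and received no injection, so the agent and the injection itself cannot be told apart. The labels give the cells as DRG neurons, while whole ganglia were taken. The 10 sensory neuron markers summed to between 11419 and 12579 counts per 1000000 (CPM) in the 8 libraries, and markers of Schwann cells (5264 to 10411 CPM) and macrophages (153 to 188 CPM) were measured beside them. Libraries held 44123208 to 73580338 counts, and some stood apart in markers of other cells. 30d replicate 1 had the highest red blood cell sum (543.5 CPM against 146 to 294 CPM in the others) and the lowest Schwann cell sum, while 0d replicate 1 had the highest Schwann cell sum, the lowest red blood cell sum and the highest skeletal muscle sum (127 CPM), of which 30d replicate 2 had the lowest (18.04 CPM). The 3 satellite glia markers summed to 603 to 663 CPM.

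Class II molecules present peptides from the endosomal route to CD4 T cells. The invariant chain holds the new class II molecule and blocks its groove until it is cut in the endosome, and DM then helps to exchange the remaining fragment for antigenic peptides. Transcription of these genes is switched on by the transactivator encoded by Ciita, which binds no DNA itself and docks on the RFX, CREB and NF-Y factors that sit on the X and Y boxes of class II promoters. Macrophages, dendritic cells and B cells are the usual sources of class II transcripts, and resident macrophages are a known source in ganglia. Interferon gamma is the best known inducer of Ciita in other cells.

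Promoter stretches are shown here because the X and Y boxes are the shared sequence element of the gene family whose transcripts are compared below. RefSeq promoter windows (GRCm38.p6, the assembly named mm10; 250 bases before to 50 after the start) were held for 4 of the 7 genes, H2-Aa, H2-Eb1, H2-DMb1 and H2-DMa. Capitals mark the X box core AGNAAC, searched on both strands, and a Y box core of 7 letters, TGATTGG, also searched on both strands. The latter was shortened from CTGATTGG after the stretches had been seen, and the 2 Y box cores overlap each other. The stretches are written 5′ to 3′ on the strand of the gene, at chr17:34305745-34305845 (plus strand) for H2-Eb1, chr17:34153066-34153167 (plus strand) for H2-DMb1 and chr17:34287834-34287938 (minus strand) for H2-Aa.
H2-Eb1: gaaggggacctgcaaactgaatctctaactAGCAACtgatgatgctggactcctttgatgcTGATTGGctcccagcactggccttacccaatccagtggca
H2-DMb1: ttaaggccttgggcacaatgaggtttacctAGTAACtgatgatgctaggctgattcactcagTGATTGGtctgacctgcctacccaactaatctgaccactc
H2-Aa: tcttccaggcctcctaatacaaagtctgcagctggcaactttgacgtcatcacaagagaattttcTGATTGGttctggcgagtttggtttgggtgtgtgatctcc
In H2-Eb1 the X core started 92 bases and the Y core 61 bases upstream of the annotated start, 31 bases apart. In H2-DMb1 the cores lay 95 and 63 bases upstream, 32 bases apart, so both genes held the cores in the same order and at nearly the same spacing. H2-Aa held the Y core 50 bases upstream and no AGNAAC in its window, and neither window of H2-DMa held the Y core. The H2-Aa stretch does hold ggcaac, which departs from AGNAAC in its first letter and was left unmarked. The search thus does not show that H2-Aa lacks an X box. AGNAAC also matched on the other strand, 2 bases past the annotated start, in H2-DMb1 and in 1 of the 2 windows of H2-DMa, outside the stretches shown. Of 32851 promoter windows of the same length, 48.1% held AGNAAC, 4.10% held CTGATTGG and 7.82% held TGATTGG. The X core followed by TGATTGG on the same strand within 40 bases was found in 52 windows (0.158%), an arrangement that was also defined after seeing the stretches.

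Levels differed widely between the 7 genes. Per length of the counted exons, Cd74 (chromosome 18, 60803849 to 60812652, plus strand) stood highest at 98.1 ± 10.5 RPKM (SD, n = 8 libraries), where RPKM is CPM per kilobase of exon, and 3.88% of the tested genes had a higher mean. The chains followed with 43.7 ± 5.79 RPKM for H2-Aa (chromosome 17, 34282751 to 34287771, minus strand), 39.996 ± 4.96 RPKM for H2-Ab1 (chromosome 17, 34263227 to 34269418, plus strand) and 28.8 ± 3.66 RPKM for H2-Eb1 (chromosome 17, 34305867 to 34316674, plus strand). The DM genes were lower, with 10.8 ± 0.778 RPKM for H2-DMa (chromosome 17, 34122832 to 34139101, plus strand) and 7.16 ± 0.683 RPKM for H2-DMb1 (chromosome 17, 34153191 to 34160229, plus strand). Ciita (chromosome 16, 10480072 to 10527640, plus strand) stood lowest at 0.623 ± 0.145 RPKM, and 83.2% of the tested genes had a higher mean. All these coordinates are of mm10 and span the whole gene, and the values are the counts over its exons. This order held in 8 of 8 libraries on the scale per length, while by CPM without length 5 of the 7 genes had the same rank. The ranges over libraries of H2-Aa (36.9 to 52.0 RPKM) and H2-Ab1 (33.8 to 48.0 RPKM) overlapped, and those of the other neighbours in the order did not. The transcript of H2-DMb1 shared 27.2% of its 50-base words with that of H2-DMb2, its close copy, so its counts are less certain than those of the other genes. H2-DMb2 itself held 13 to 49 counts per library. H2-Aa shared 0.599% of its words with other genes and the other 5 genes shared none, and Cd74 shared 12 of its 1415 exonic bases with Mir5107, where a read pair was counted for both.

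**Figure D1:**
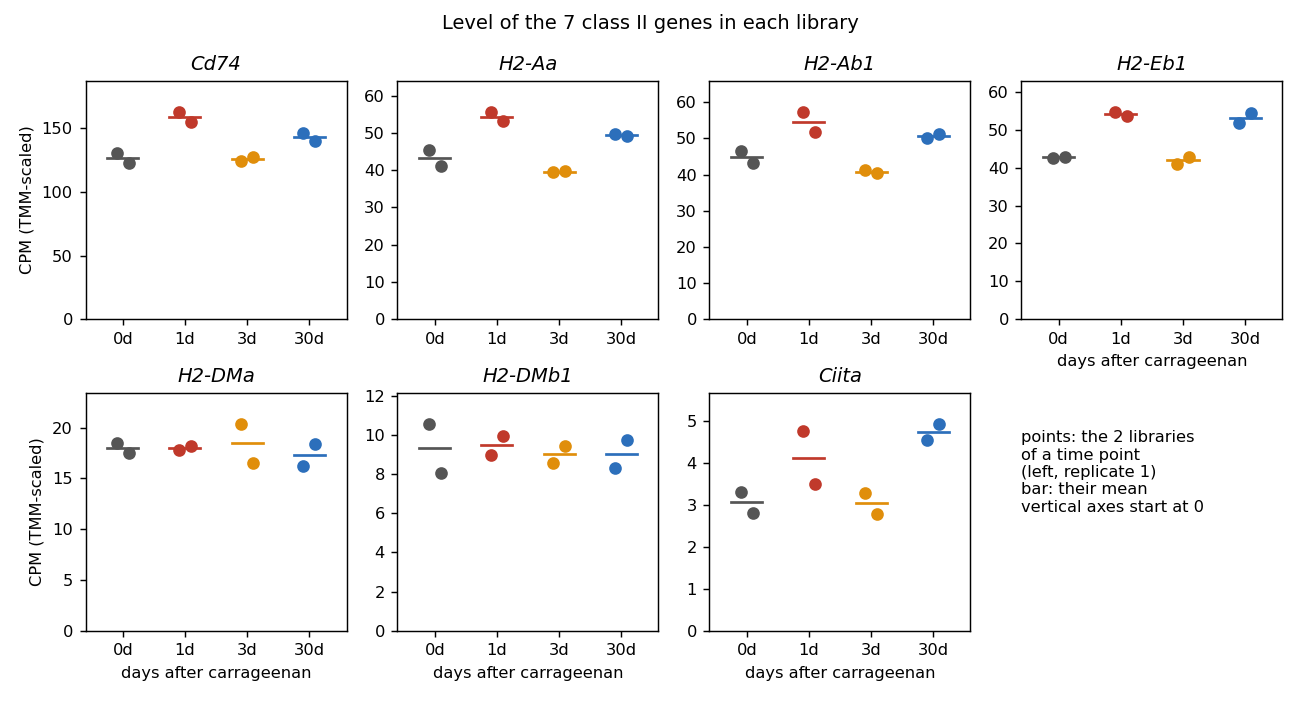
Level of each of the 7 genes in each library, in CPM scaled by TMM, with the time point on the horizontal axis, 2 points for the 2 libraries of a time point and a bar for their mean; each vertical axis starts at 0. For Cd74, H2-Aa, H2-Ab1, H2-Eb1 and Ciita both libraries of 1d and both of 30d sit above both of 0d and both of 3d, while the points of H2-DMa and H2-DMb1 overlap between time points.

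The level in each library is given in CPM, a scale on which a gene is compared with itself between libraries. Cd74 stood at 131 and 123 CPM in the 0d libraries, 163 and 155 CPM at 1d, 124 and 128 CPM at 3d and 146 and 140 CPM at 30d. Both 1d libraries were the highest of the 8, both 30d libraries came next, and those of 0d and 3d overlapped. The gene had 6799 to 9806 counts per library.

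Among the genes of the chains, the α chain gene H2-Aa stood at 45.5 and 41.2 CPM at 0d, 55.6 and 53.1 CPM at 1d, 39.5 and 39.7 CPM at 3d and 49.6 and 49.2 CPM at 30d. Its β chain partner H2-Ab1 stood at 46.5 and 43.3 CPM at 0d, 57.3 and 51.9 CPM at 1d, 41.2 and 40.3 CPM at 3d and 50.1 and 51.2 CPM at 30d. For both genes the order of the time points was 1d, 30d, 0d and 3d, with no overlap between any of the 4. H2-Eb1, a β chain gene whose α partner is not made in C57BL/6 mice, stood at 42.7 and 42.9 CPM at 0d, 54.7 and 53.7 CPM at 1d, 41.0 and 43.0 CPM at 3d and 51.7 and 54.5 CPM at 30d. Its 1d and 30d libraries overlapped, its 0d and 3d libraries overlapped, and the first group lay above the second.

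H2-DMa stood at 18.5 and 17.5 CPM at 0d, 17.8 and 18.2 CPM at 1d, 20.4 and 16.5 CPM at 3d and 16.2 and 18.4 CPM at 30d. H2-DMb1 stood at 10.6 and 8.05 CPM at 0d, 8.95 and 9.96 CPM at 1d, 8.56 and 9.44 CPM at 3d and 8.29 and 9.71 CPM at 30d. For both DM genes every time point overlapped every other. Ciita stood at 3.31 and 2.80 CPM at 0d, 4.75 and 3.49 CPM at 1d, 3.28 and 2.79 CPM at 3d and 4.55 and 4.93 CPM at 30d. Its 1d and 30d libraries lay above those of 0d and 3d, but with 153 to 345 counts per library and 1d libraries that differed by more than 1 CPM it was the least precise of the 7.

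At 1d, Cd74 and H2-Eb1 were significantly higher than at 0d. Cd74 rose from 127 ± 5.82 to 159 ± 5.55 CPM (SD, n = 2), a log2 fold change of 0.32 (SE 0.0493, adjusted p = 0.00577 by edgeR). H2-Eb1 rose from 42.8 ± 0.188 to 54.2 ± 0.721 CPM, a log2 fold change of 0.34 (SE 0.0609, adjusted p = 0.0220). Over all genes tested, 57 of 17328 (0.329%) were called higher in this comparison, against these 2 of 7. The total in both directions, 60, was 26 to 111 with 1 library left out and 49 to 110 under the other settings. H2-Aa had nearly the same log2 fold change (0.33, SE 0.0653) with an adjusted p of 0.0502, and H2-Ab1 had 0.28 (SE 0.0669, adjusted p = 0.150). Ciita had the largest estimate of the 7 and did not pass, at 0.43 (SE 0.216, adjusted p = 1.00). The estimates of H2-DMa and H2-DMb1 were 0.00 (SE 0.112) and 0.02 (SE 0.154). The 7 genes had a median log2 fold change of 0.32, beside 0.00 over all genes. Both 1d libraries lay above both 0d libraries for 5 of the 7 genes, which also held for 2686 of all genes tested (15.5%). In whole ganglia, more cells that carry these transcripts and more transcript per cell cannot be told apart. Among markers of other cells, the 6 skeletal muscle genes all had lower estimates at 1d (median log2 fold change -1.17, with Myh1 called, adjusted p = 0.0324, a call lost without 0d replicate 1, either 1d library or either 3d library, and without robust estimation, with limma-voom or with the compared groups alone), as did the 4 Schwann cell genes (median -0.23, none called), and the satellite glia gene Fabp7 had -0.89 (adjusted p = 1.00). The 6 red blood cell genes all had higher estimates (median 0.31, none called). The part of these in the class II values was not tested. The 1d libraries also belong to the comparison that was used in choosing the genes, so these values are not independent of that choice. DESeq2 called Cd74, H2-Eb1 and H2-Aa (adjusted p = 4.29e-06, 0.000984 and 0.00591). Of the edgeR calls, that of Cd74 was lost without 1d replicate 1 (adjusted p = 0.142). That of H2-Eb1 was lost without any 1 of the 6 libraries of 0d, 1d and 3d (adjusted p = 0.168 and 0.0793 without 0d replicates 1 and 2, 0.273 and 0.112 without 1d replicates 1 and 2, and 0.0645 and 0.0701 without 3d replicates 1 and 2), and with limma-voom (0.0525) or the compared groups alone (0.0575). H2-Aa passed without 0d replicate 1 (adjusted p = 0.0485) or either 30d library (adjusted p = 0.0218 and 0.0224), and with no filter (0.00640), upper quartile scaling (0.0463), the CPM filter (0.0482) or the replicate block (0.0311).

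At 3d, none of the 7 genes differed significantly from 0d by edgeR, none had an unadjusted p under 0.05, and DESeq2 called none. This comparison shares no library with that of 30d with 1d, but the rule that chose the genes also read their levels in all 8 libraries, so it is not independent of the choice either. Over all genes 38 were called in either direction (0.219%), and 1030 had an unadjusted p under 0.05. The total was 1 to 121 with 1 library left out and 20 to 121 under the other settings. The lowest estimates were those of H2-Ab1, -0.14 on the log2 scale (from 44.9 ± 2.31 to 40.8 ± 0.625 CPM, adjusted p = 0.843), and H2-Aa, -0.13 (from 43.4 ± 3.07 to 39.6 ± 0.125 CPM, adjusted p = 0.854). For these 2 genes both 3d libraries lay below both 0d libraries, as they did for 3398 of all genes tested (19.6%). The other 5 had log2 fold changes between -0.05 and 0.03. Among markers of other cells, 2 of 10 sensory neuron genes were called higher (median log2 fold change 0.08), and 0 without robust estimation. Of 6 skeletal muscle genes 1 was called lower (median -0.70), a call lost without robust estimation and with limma-voom. The 3 satellite glia genes had -1.35 to 0.33, with 0 called, and 2 with the compared groups alone. The part of these in the class II values was not tested.

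At 30d, none of the 7 genes passed the threshold against 0d by edgeR, while 5 of them had an unadjusted p under 0.05, and DESeq2 called 1 of them, H2-Eb1 (adjusted p = 0.00584). The comparison called 4 genes of 17328 in all (0.0231%), and 2124 had an unadjusted p under 0.05. The total over all genes was unstable, at 1 to 202 with 1 library left out and 0 to 184 under the other settings, of which 184 was that of DESeq2. H2-Eb1 came nearest, at 53.1 ± 1.97 CPM against 42.8 ± 0.188 CPM, a log2 fold change of 0.31 (SE 0.0604, adjusted p = 0.0720), and it passed without 30d replicate 1 (adjusted p = 0.0447) and with the replicate number as a block (adjusted p = 0.0462). Cd74 had 0.17 (adjusted p = 0.190), H2-Aa 0.19 (adjusted p = 0.263) and H2-Ab1 0.17 (adjusted p = 0.318). Ciita had the largest estimate, 0.63 (SE 0.212, adjusted p = 0.256), at 4.74 ± 0.268 CPM against 3.06 ± 0.356 CPM. For these 5 genes both 30d libraries lay above both 0d libraries, as they did for 3369 of all genes tested (19.4%). H2-DMa and H2-DMb1 had -0.06 and -0.05. In this comparison the median log2 fold change was 0.93 for the 6 red blood cell genes (6 above 0), -0.44 for the 4 Schwann cell genes (0 above 0) and -0.61 for the 6 skeletal muscle genes (0 above 0), none of them called by edgeR. The 3 satellite glia genes had a median of -0.30 (1 above 0), with none called by edgeR with all libraries and 1 called by DESeq2. DESeq2 called 1 Schwann cell gene, as did edgeR without 30d replicate 2. Of 17 macrophage markers 5 had an unadjusted p under 0.05 and none was called by edgeR, beside 1 with DESeq2, with no filter and with the replicate block, and 3 without 30d replicate 2. The part of these in the class II values was not tested.

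Between 3d and 30d, the 3 chain genes were significantly higher at the later time. H2-Eb1 rose from 42.0 ± 1.36 to 53.1 ± 1.97 CPM, a log2 fold change of 0.34 (SE 0.0601, adjusted p = 0.0157). H2-Aa rose from 39.6 ± 0.125 to 49.4 ± 0.266 CPM (log2 fold change 0.32, SE 0.0647, adjusted p = 0.0313), and H2-Ab1 from 40.8 ± 0.625 to 50.6 ± 0.784 CPM (log2 fold change 0.31, SE 0.0662, adjusted p = 0.0385). The comparison called 162 genes in either direction (0.935%), 36 of them higher and 126 lower at 30d, and the total was 12 to 525 with 1 library left out and 92 to 378 under the other settings, of which 378 was that of DESeq2. Cd74 had a smaller estimate that did not pass, 0.18 (adjusted p = 0.107), from 126 ± 2.13 to 143 ± 4.34 CPM, although DESeq2 called it beside the 3 chain genes (adjusted p = 0.0414) and so did edgeR with no filter on low counts (adjusted p = 0.0447). Ciita had 0.64 (SE 0.211, adjusted p = 0.195). Both 30d libraries lay above both 3d libraries for these 5 genes, and for 3969 of all genes (22.9%). The DM genes had -0.09 and 0.00. Each of the 3 calls was lost without 3d replicate 1 (adjusted p = 0.395 to 0.434), 3d replicate 2 (0.181 to 0.489) or 30d replicate 2 (0.0638 to 0.108), and those of H2-Aa and H2-Ab1 also without robust estimation (0.0551 and 0.0653). They held without 30d replicate 1 (0.00973 to 0.0371). The 30d libraries are shared with the comparison that chose the genes. In the same comparison the 6 red blood cell genes all had positive estimates (median log2 fold change 1.10) and the 4 Schwann cell genes negative ones (median -0.41), none of them called by edgeR with all libraries, and 1 Schwann cell gene called without 30d replicate 2. Of the 10 sensory neuron genes 9 had negative estimates (median -0.10), with Calca, a neuropeptide gene, called lower (-0.43, adjusted p = 0.00201). The number of neuron genes called was 2 without any 1 of the 0d and 1d libraries, with limma-voom, with the compared groups alone or with the replicate block, and 3 with DESeq2, with no filter or without 30d replicate 1. Of the 6 skeletal muscle genes Myh1 was called higher (1.35, adjusted p = 0.0292), a call lost without 3d replicate 1, without 3d replicate 2, with limma-voom or without robust estimation. The part of these in the class II values was not tested.

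**Figure D2:**
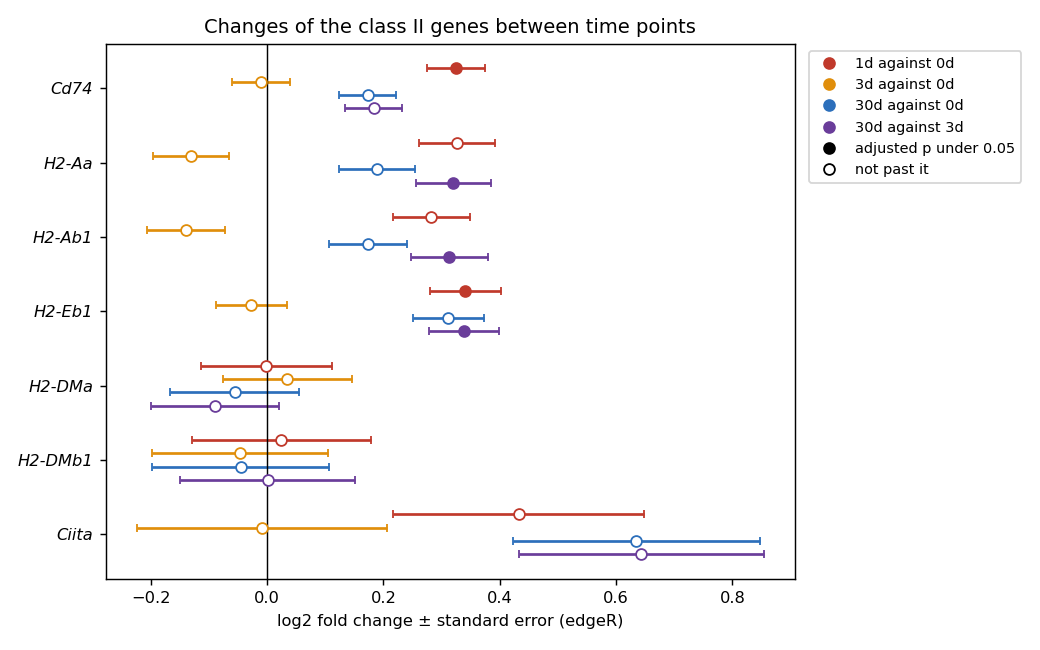
Log2 fold change of each of the 7 genes (horizontal axis) with its standard error as a bar, from edgeR's fit of the 8 libraries, for 1d, 3d and 30d against 0d and for 30d against 3d; filled points passed an adjusted p of 0.05. Cd74 and H2-Eb1 are filled at 1d against 0d, and H2-Aa, H2-Ab1 and H2-Eb1 at 30d against 3d; the 3d points lie at or just below 0 for 6 genes and at 0.03 for H2-DMa.

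In the comparison of 30d with 1d, which was used in choosing the genes, the log2 differences (30d minus 1d) were small. They were -0.15 for Cd74, -0.14 for H2-Aa, -0.11 for H2-Ab1 and -0.03 for H2-Eb1. They were -0.05 for H2-DMa, -0.07 for H2-DMb1 and 0.20 for Ciita. The 30d libraries lay below the 1d libraries for Cd74, H2-Aa and H2-Ab1 and overlapped them for the others, and over all genes 3528 (20.4%) lay below. In this comparison 89 genes of 17328 were called lower (0.514%), from which nothing is read for the 7 genes.

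The 7 genes varied together to different degrees over the 8 libraries, which share the time points, so these correlations of log2 CPM are descriptions. H2-Aa and H2-Ab1 had the highest Pearson r, 0.99. Cd74 had r of 0.96 with H2-Aa, 0.93 with H2-Ab1 and 0.90 with H2-Eb1, and Ciita had 0.73 to 0.83 with these 4 genes. The DM genes did not follow: H2-DMa had r between -0.25 and 0.18 with the other 6 genes, and H2-DMb1 between 0.03 and 0.26. The ratio of Cd74 to the summed CPM of the 3 chain genes was 0.973 and 0.964 in the 0d libraries, 0.972 and 0.977 in those of 1d, 1.02 and 1.04 in those of 3d and 0.966 and 0.904 in those of 30d. It was thus highest in both 3d libraries, where H2-Aa and H2-Ab1 were at their lowest, and lowest in 30d replicate 2.

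The other genes of the class II route were taken by role. Of 5 further class II chain genes in the table, 3 were tested, and none was called by edgeR or DESeq2 or had an unadjusted p under 0.05 in the comparisons with 0d or of 30d with 3d. H2-Ea-ps, the Eα gene that is defective in C57BL/6 mice, had no count in any library. The 7 tested genes of class II transcription, the RFX, CREB and NF-Y factors that Ciita docks on, had no call in the same 4 comparisons by edgeR or DESeq2, no unadjusted p under 0.05, and median log2 fold changes of -0.05 at 1d, -0.01 at 3d and 0.00 at 30d against 0d. Of the 9 genes of the interferon gamma route 8 were tested, and none was called by edgeR in these 4 comparisons. Irf1, a transcription factor of this route, had 17.8 and 17.7 CPM at 0d and 26.4 and 23.7 CPM at 1d, with both 1d libraries higher and a log2 fold change of 0.50 (SE 0.103, adjusted p = 0.0653). At 1d 4 of the 8 had an unadjusted p under 0.05 (0 at 3d and 2 at 30d against 0d, 0 between 3d and 30d), beside 4.47%, 5.94%, 12.3% and 13.01% of all genes in these comparisons. DESeq2 called 1 of the 8 at 1d and none in the other 3 comparisons. At 1d edgeR also called 1 with no filter and with the replicate block. The median log2 fold change of the 8 at 1d was 0.20, with 6 above 0. Ifngr2 was lower, from 69.5 to 66.0 CPM on average, with both 1d libraries below both of 0d. Socs1, a feedback inhibitor of the route, had a log2 fold change of 0.72 (adjusted p = 0.518) and the transcription factor gene Irf8 0.50 (adjusted p = 0.814), both with the 1d libraries above those of 0d. Ifng itself had 3 counts in 3d replicate 2 and 0 counts in each of the other 7 libraries. None of the 3 costimulation genes was called by edgeR or DESeq2, and 1 had an unadjusted p under 0.05, at 30d against 3d. Among 9 genes of peptide loading and turnover none was called against 0d by edgeR (1, 2 and 2 with an unadjusted p under 0.05 at 1d, 3d and 30d). At 3d DESeq2 called 1, as did edgeR with no filter or with the compared groups alone. By edgeR 2 genes were lower at 30d than at 3d, in the opposite direction to the chain genes: Lgmn fell by 0.29 on the log2 scale (adjusted p = 0.00449) and Ctsl fell by 0.25 (adjusted p = 0.0266). The 2 calls became 0 without 3d replicate 1 and 1 without 3d replicate 2, without 30d replicate 2 or without robust estimation. Both encode endosomal proteases, of which cathepsin L cuts the invariant chain in some cell types.

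Class I presentation, the route that shows cytosolic peptides to CD8 T cells, gave a different set of values. Some of its genes lie among the class II genes on chromosome 17, where Psmb9 (34182099 to 34187330), Tap1 (34187556 to 34197225), Psmb8 (34198195 to 34201454) and Tap2 (34204479 to 34216321) stand between H2-DMb1 and H2-Ab1. Tap1, a subunit of the peptide transporter, stood at 10.3 and 10.7 CPM at 0d, 31.6 and 24.7 CPM at 1d, 14.5 and 13.7 CPM at 3d and 13.9 and 11.4 CPM at 30d, so that 1d lay well above every other time point. It rose by 1.42 on the log2 scale at 1d (SE 0.130, adjusted p = 4.77e-05). Its partner Tap2 rose by 0.65 (adjusted p = 0.000608), the immunoproteasome gene Psmb9 by 1.12 (adjusted p = 0.0156) and the loading factor gene Tapbp by 0.24 (adjusted p = 0.0370). These 4 of 9 genes were called at 1d (2 without 0d replicate 2 or without 1d replicate 1, and 7 by DESeq2), and none of the 9 at 3d or at 30d against 0d or between 3d and 30d by edgeR. In these 3 comparisons 4, 1 and 2 of the 9 had an unadjusted p under 0.05, beside 5.94%, 12.3% and 13.01% of all genes, and DESeq2 called 1, at 3d. The 4 of 9 called at 1d stand beside 57 of all 17328 genes tested called higher (0.329%). The counts of 0 in the other 3 comparisons depended on the fit. At 3d against 0d edgeR called 2 with the compared groups alone and 1 without 0d replicate 2, without 1d replicate 1 or without 1d replicate 2. Between 3d and 30d it called 3 with the compared groups alone, 1 without either 0d library and 2 without either 1d library. Nlrc5, which encodes the class I counterpart of the class II transactivator, had 1.48 at 1d with a wide error (SE 0.393, adjusted p = 0.625).

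The 9 class I genes had median log2 fold changes of 0.65 at 1d, 0.29 at 3d and 0.14 at 30d against 0d. The 7 class II genes had 0.32, -0.03 and 0.17 in the same comparisons, which share the 0d libraries. Between 3d and 30d the class I median was -0.15 and the class II median 0.31. All 9 class I genes had a positive estimate at 3d. Whether the 2 groups of genes differ was not tested.

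**Figure D3:**
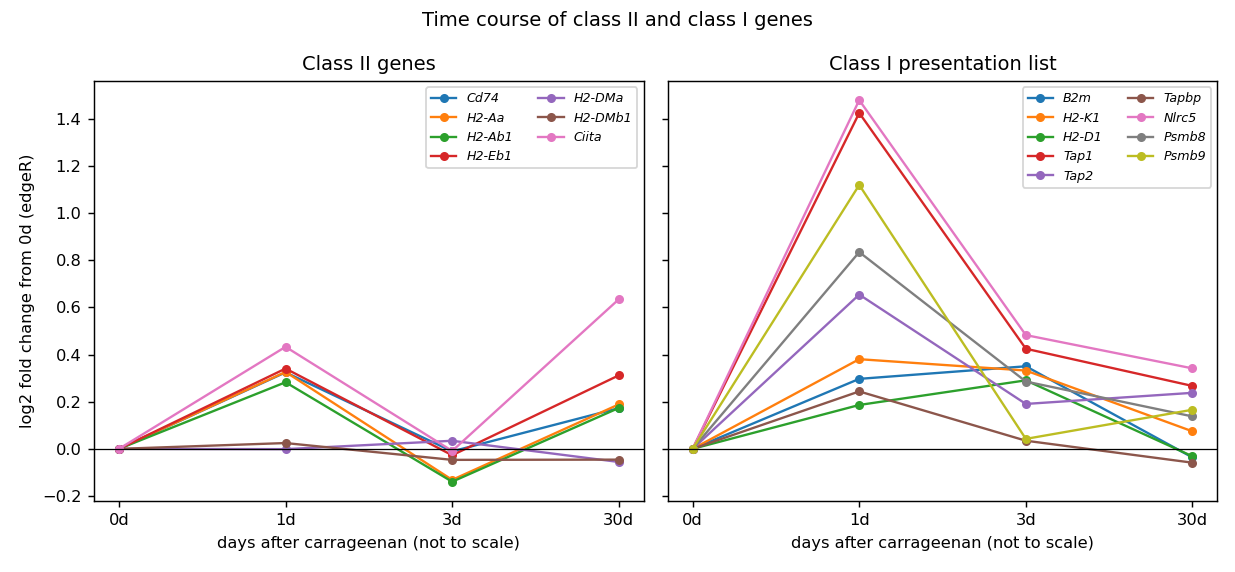
Log2 fold change from 0d (vertical axis, edgeR) at each time point (horizontal axis, not to scale) for the 7 class II genes on the left and the 9 genes of the class I presentation list on the right, 1 line a gene. The class I lines are highest at 1d for 7 genes, with Nlrc5 at 1.48 and Tap1 at 1.42, and the class II lines of Cd74, H2-Aa, H2-Ab1, H2-Eb1 and Ciita are raised at 1d, return to 0 or below at 3d and are raised again at 30d.

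Markers of the cell types that usually carry class II transcripts were set beside these values. The summed CPM of the 7 genes was 298 and 279 in the 0d libraries, 362 and 345 in those of 1d, 278 and 279 in those of 3d and 327 and 328 in those of 30d. The summed CPM of 17 macrophage markers was 171 and 153 in the 0d libraries, 188 and 181 in those of 1d, 168 and 171 in those of 3d and 185 and 170 in those of 30d. Both 1d libraries thus lay above both 0d libraries in both sums, while the 30d and 3d libraries overlapped in the macrophage sum and not in the class II sum. None of the 17 markers was called at 1d against 0d, where their median log2 fold change was 0.20 with 13 of 17 above 0, and none at 30d against 3d, where the median was 0.12 with 10 of 17 above 0. At 1d the complement genes C1qa (19.1 to 23.6 CPM on average, log2 fold change 0.30, adjusted p = 0.445), C1qb (16.3 to 21.8 CPM, 0.42, adjusted p = 0.354) and C1qc (15.0 to 18.5 CPM, 0.30, adjusted p = 0.585), and Mpeg1, which encodes a pore-forming protein of macrophages (14.2 to 20.1 CPM, 0.49, adjusted p = 0.235), had both libraries above both of 0d, while Csf1r, the receptor gene for macrophage growth factor, was at -0.03. Cx3cr1 went the other way, from 10.9 to 9.03 CPM on average, with both 1d libraries below both of 0d. Adgre1 (6.52 to 5.91 CPM) and Cd68 (4.32 to 4.04 CPM) were also lower on average, with overlapping libraries. An unadjusted p under 0.05 was held by 5 of the 17 at 1d and by 3 between 3d and 30d, beside 4.47% and 13.01% of all genes. DESeq2 called 0 and 2, and edgeR with no filter called 1 and 2. None of the 17 was at 0 in every library.

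The class II sum divided by the macrophage sum was 1.74 and 1.82 in the 0d libraries, 1.93 and 1.90 in those of 1d, 1.65 and 1.63 in those of 3d and 1.77 and 1.93 in those of 30d. This ratio lay above 0d in both 1d libraries, below it in both 3d libraries, and overlapped it at 30d. Cx3cr1, the fractalkine receptor of resident macrophages, was the 1 marker called at 3d. It fell by 1.02 on the log2 scale (adjusted p = 0.00794), from 10.8 and 10.9 CPM to 5.64 and 5.06 CPM. Without 3d replicate 1 or without 3d replicate 2 no macrophage marker was called at 3d, and DESeq2 called 3. The edgeR count at 3d was 2 with no filter or with the replicate block, and 3 with the compared groups alone. Of the 17 markers 12 had a positive estimate at 3d (median log2 fold change 0.06). The scavenger receptor gene Cd163 had 1.05 (4.73 to 9.75 CPM, adjusted p = 0.310), Lyve1 0.94 (3.78 to 7.23 CPM, adjusted p = 0.0826) and the integrin gene Itgam 0.50 (4.43 to 6.28 CPM, adjusted p = 0.699), each with both 3d libraries above both 0d libraries, so the list did not move one way.

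The 9 dendritic cell markers summed to 42.3 and 40.7 CPM at 0d, 42.0 and 39.1 CPM at 1d, 40.3 and 36.0 CPM at 3d and 39.3 and 41.9 CPM at 30d, which overlapped between 0d, 1d and 30d. Flt3 (26.9 CPM on average) and Zbtb46 (8.00 CPM) made up most of this sum, and the other 7 markers, Itgax, Xcr1, Clec9a, Ccr7, Cd209a, Siglech and Batf3, were each under 2 CPM on average. The sum thus mostly follows Flt3 and Zbtb46 and says little about the other 7 markers. Whether it tracks dendritic cells was not tested. The 5 B cell markers summed to 2.86 to 6.42 CPM, and the 6 T cell markers to 1.31 to 2.44 CPM. Both extremes of each of these 2 sums lay within 30d. None of these 20 markers was called by edgeR or DESeq2, or had an unadjusted p under 0.05, in any of the 4 comparisons. The part of macrophages or of any other cell type in the class II values was not tested.

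**Figure D4:**
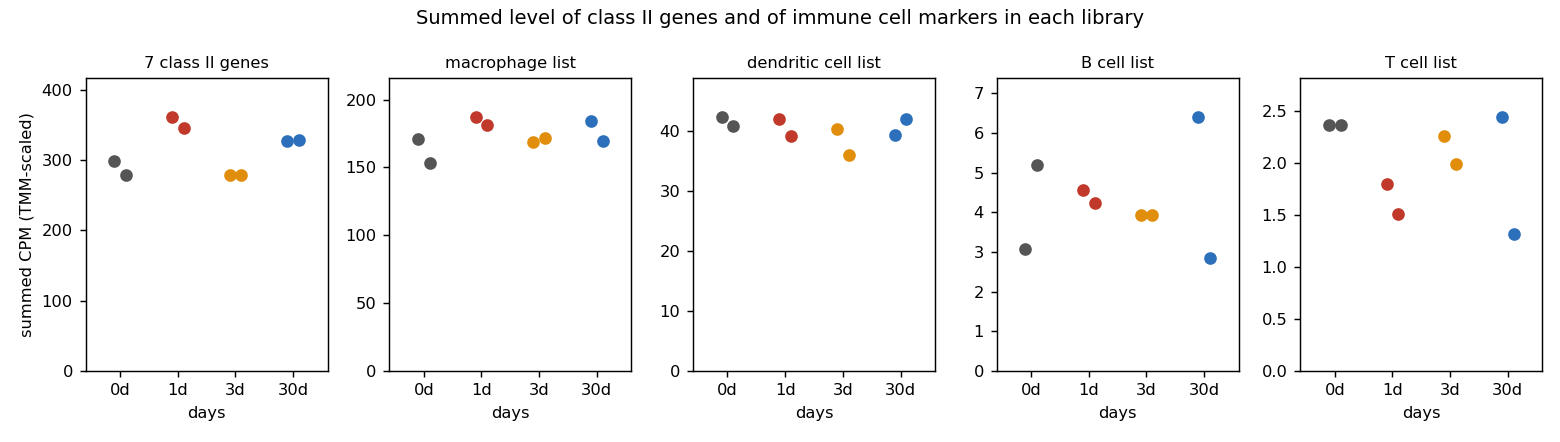
Summed CPM (vertical axes, from 0) of the 7 class II genes and of the macrophage, dendritic cell, B cell and T cell markers in each library (1 point each) by time point. The class II sum is 345 to 362 CPM at 1d and 278 to 279 CPM at 3d, the macrophage sum is 153 to 188 CPM over all 8 libraries, and the B cell and T cell sums stay under 7 CPM.

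Among the other tested genes with a mean of at least 1 CPM, leaving out the 7 themselves, the 10 whose log2 CPM most resembled the mean standardised profile of the 7 genes over the 8 libraries had Pearson r of 0.90 to 0.97, as a description over libraries that share the time points. They were Slc4a1ap, Fgf5, Hip1r, Slc34a2, Gm10432, Tank, Laptm5, Zbtb1, Cmss1 and Dtymk. Laptm5, a lysosomal membrane protein gene of blood cells and macrophages, was at 18.2 and 15.4 CPM at 0d, 19.5 and 20.4 CPM at 1d, 16.5 and 15.9 CPM at 3d and 20.6 and 19.7 CPM at 30d. As for H2-Eb1, its 1d and 30d libraries overlapped and lay above those of 0d and 3d, which overlapped too. Slc4a1ap came first with r of 0.97 and a much smaller swing, between 28.5 and 32.6 CPM.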

How the data were processed

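RNA from whole DRG was sequenced in 8 libraries, 2 for each time point. Per the labels and the methods, reads were trimmed (cutadapt 2.10) and aligned to mm10 (STAR 2.7.5a), and the authors counted read pairs over the exons of UCSC genes with featureCounts 2.0.1, without strand and with a pair that overlapped several genes counted for each. They deposited the raw counts per gene of the 8 libraries in 1 table with the exon length of each gene, and groups follow the labels. Genes were filtered with filterByExpr (17328 of 24421 kept), library sizes were scaled by TMM (factors 0.993 to 1.01), and all 8 libraries were fitted together with edgeR 4.0.16 in R 4.3.3 (robust quasi-likelihood, 4 residual degrees of freedom, common biological coefficient of variation 8.85%). Benjamini-Hochberg adjustment ran over all genes tested, with a threshold of 0.05. Standard errors were taken as the absolute log2 estimate over the root of its F value. CPM and RPKM were computed here from the TMM-scaled counts, and log2 CPM with a prior count of 2.

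With 2 libraries a group the smallest exact two-sided permutation p is 0.333, so p-values came from the fit across genes. Libraries held 44123208 counts or more, and counting error weighs most on Ciita, with 153 to 345 counts per library. Shared 50-base words came from the longest GENCODE vM21 transcripts and promoter windows from RefSeq (GRCm38.p6). The genes named are the 7 members, genes of the lists that passed a comparison or define or lead their list, and the 10 genes most alike over the libraries. Nlrc5, Irf1, Irf8, Socs1, Ifngr2, Cd163, Lyve1, Itgam, C1qa, C1qb, C1qc, Mpeg1, Csf1r, Adgre1, Cd68, Fabp7, Laptm5 and Slc4a1ap were singled out for fuller values after these had been seen. The 7 genes and the lists were chosen with earlier results of these data known. The alternatives were RLE and upper quartile scaling, no filter, a CPM filter (at least 1 CPM in 2 libraries), no robust estimation, DESeq2 1.42.0, limma-voom (limma 3.58.1), a fit of only the groups compared, a block for the replicate number and each library left out.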

Additional observations from a re-analysis of the deposited data

Results flagged for a closer look

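The change from 0d differed between 3d and 30d for the 3 class II chain genes, by edgeR's test of 30d against 3d with Benjamini-Hochberg adjustment. The difference (30d minus 3d, log2) was 0.32 for H2-Aa (adjusted p = 0.0313), 0.31 for H2-Ab1 (adjusted p = 0.0385) and 0.34 for H2-Eb1 (adjusted p = 0.0157). For each of them both 30d libraries lay above both 3d libraries. Over all genes 162 of 17328 (0.935%) passed. Each of the 3 calls was lost without 3d replicate 1, 3d replicate 2 or 30d replicate 2 (adjusted p = 0.0638 to 0.489), and the genes had been chosen with levels in these libraries known. The cause was not tested.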

How the results depend on the processing

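The 17 alternatives were 9 other settings and 8 fits that left out 1 library each. Over the 7 genes and the 4 tested comparisons they gave 476 fold changes, of which 411 kept their direction and their side of the threshold, 20 lost and 15 gained it, and 30 changed sign. At 1d against 0d, 2 of the 7 genes were called, and the number was 4 with no filter on low counts, 1 with limma-voom, 1 with the compared groups alone and 0 to 3 with 1 library left out. At 30d against 0d the number was 1 with no filter, 1 with DESeq2, 1 with the replicate block, and 0 to 1 with 1 library left out, beside 0. At 30d against 3d it was 1 without robust estimation, 4 with no filter and with DESeq2, where Cd74 passed too, and 0 to 3 with 1 library left out, beside 3. At 3d against 0d it was 0 under all 17 alternatives. The cause of these changes was not tested.

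The signs that turned belonged to estimates near 0. H2-DMa at 1d against 0d was 0.000202 with RLE scaling, 0.00347 with upper quartile scaling, 0.000287 with no filter, 0.00153 with the CPM filter, 0.000198 with DESeq2 and 0.00134 with limma-voom, and H2-DMb1 at 30d against 3d was -0.000781 with no filter. With 1 library left out, the log2 fold change of H2-DMa ranged from -0.0385 to 0.0384 at 1d, -0.12 to 0.18 at 3d and -0.15 to 0.0298 at 30d against 0d, and from -0.24 to 0.0674 at 30d against 3d. That of H2-DMb1 ranged from -0.16 to 0.23, -0.23 to 0.16, -0.23 to 0.16 and -0.12 to 0.11 in the same 4 comparisons. At 3d against 0d, Cd74 ranged from -0.0566 to 0.0372, H2-Eb1 from -0.0602 to 0.00694 and Ciita from -0.13 to 0.11.

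Samples with the same replicate number did not deviate together (correlations of -0.01 to 0.04), so the numbers do not pair the libraries. With the replicate number as a block the calls were 3 at 1d, where H2-Aa passed (adjusted p = 0.0311), 0 at 3d and 1 at 30d against 0d, and 3 at 30d against 3d.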
